A study of Mus musculus with 6 samples.

Results

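The ErbB receptors and the EGF-family ligands that act on them were followed in the kidneys of mice kept in hypoxia. The set was given by name as 4 receptor genes (Egfr, Erbb2, Erbb3 and Erbb4) and 6 ligand genes (Egf, Hbegf, Tgfa, Areg, Btc and Nrg4), 10 of the 54532 named genes in the count table, and each had exactly 1 row. Of the 10, 9 passed the filter on low counts and Areg did not. The kidneys came from mice labelled Lpar3-/-, which carry a deficiency of lysophosphatidic acid (LPA) receptor 3, and from mice labelled WT, with 3 RNA-seq libraries in each group. Both groups had spent 12 h at 8% oxygen in a chamber at normal pressure, so the comparison is between genotypes under systemic hypoxia and holds no kidney kept in normal air. The sources used here do not give age, sex, strain background or the design of the knockout allele. Nor do they tie each library to an animal of its own, so the p-values cover the spread of these libraries, part of which may be technical.

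ErbB receptors are tyrosine kinases that sit in the cell membrane and signal as pairs. EGFR, the product of Egfr, binds EGF, TGF-alpha, amphiregulin, HB-EGF and betacellulin, while ErbB4 binds neuregulins and also HB-EGF and betacellulin. ErbB2 has no known ligand of its own and serves as a partner, and ErbB3 binds neuregulins but has little kinase activity. The ligands are made as membrane proteins and cut free by metalloproteases of the ADAM family. In cultured cells, LPA and other ligands of G protein-coupled receptors are known to activate EGFR by way of such shedding. In the kidney, Egf is made mainly by the thick ascending limb and the distal convoluted tubule, and its product reaches the urine in quantity.

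The libraries held 15953794 to 17940438 counts in named genes, and every pair differed by more than sampling noise, with a chi-square per degree of freedom of 4.21 to 15.95. It was 4.21 to 7.14 between libraries labelled Lpar3-/- and 11.96 to 12.75 between WT libraries. WT replicate 1 was closer to labelled Lpar3-/- replicates 1, 2 and 3 (8.66, 7.73 and 8.86) than to WT replicates 2 and 3 (12.75 and 11.96). Lpar3 itself did not set the groups apart, with 672, 592 and 580 counts in the libraries labelled Lpar3-/- and 645, 634 and 577 in WT, and counts per gene cannot show whether a deleted part was missing. Every direction below therefore rests on the labels. Epo, the erythropoietin gene, had 20, 15 and 19 counts in the libraries labelled Lpar3-/- and 69, 57 and 61 in WT. The kidney was recognisable in each library, with proximal tubule markers summing to 9584 to 10637 CPM (counts scaled to a common library size by TMM), and WT replicate 2 had the highest sum of 7 tubular injury markers (1022 CPM, against 523 to 607 CPM in the other 5 libraries). All 7 injury markers had a negative log2 fold change, labelled Lpar3-/- over WT, with a median of -1.39 (-0.23, and 5 of 7 negative, without WT replicate 2). For 3 of them (Lcn2, Krt20 and Cd44) every library labelled Lpar3-/- lay below every WT library, where the share of all tested genes was 7.12%. None of the 7 was called by edgeR, DESeq2 or limma-voom (0 each). An unadjusted edgeR p under 0.05 was found for 5 (9.18% of all tested genes), and edgeR called 2 without WT replicate 1 (149 genes in all). The injury list was chosen with earlier results of these data known, so these counts are no test of it.

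Erbb4 and Egf were the members that lay higher in every library labelled Lpar3-/- than in every WT library. Their upstream sequences are given because the comparison turns on these genes. Each line holds the 250 bases before the start site, 5′ to 3′ on the gene's strand, from RefSeq on GRCm38.p6, with CG dinucleotides in capitals. The Erbb4 window lies on the minus strand at chr1:69108060-69108309 and the Egf window on the minus strand at chr3:129755323-129755572.
Erbb4: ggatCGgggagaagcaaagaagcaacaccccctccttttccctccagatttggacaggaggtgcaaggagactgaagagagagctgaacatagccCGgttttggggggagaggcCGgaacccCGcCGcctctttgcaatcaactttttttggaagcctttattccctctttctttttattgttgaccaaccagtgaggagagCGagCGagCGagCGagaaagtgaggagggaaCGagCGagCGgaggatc
Egf: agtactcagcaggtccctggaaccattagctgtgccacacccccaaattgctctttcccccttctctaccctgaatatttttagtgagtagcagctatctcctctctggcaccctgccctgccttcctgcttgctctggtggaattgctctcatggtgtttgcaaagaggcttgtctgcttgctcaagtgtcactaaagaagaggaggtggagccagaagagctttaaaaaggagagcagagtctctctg
The Erbb4 window held 12 CG dinucleotides and the Egf window 0, where the median of all 32851 RefSeq windows of that length was 6. The core of the hypoxia response element, searched as ACGTG and as GCGTG on both strands, was in neither window, while 38.6% of all windows held at least 1 of these cores. Among the 8 members with a window, Tgfa had GCGTG once, Btc had it at 2 places, and Nrg4, at a start site inside the gene, had both ACGTG and GCGTG. A second Egf start site, 30230 bases inside the gene, had ACGTG. These matches describe letters in a window and no binding.

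Levels per gene length, in the authors' deposited FPKM (counts scaled for gene length and depth), spanned a wide range within the family. Egf led by far, at 114 to 151 FPKM over the 6 libraries with a mean of 135 FPKM, and made up 86.7% to 91.9% of the FPKM of the 6 ligands in each library. Erbb3 followed with a mean of 29.6 FPKM (24.7 to 34.0 FPKM) and Erbb2 with 17.5 FPKM (14.5 to 20.9 FPKM), so the partner receptors outranked Egfr and Erbb4. Hbegf averaged 10.7 FPKM, Egfr 3.95 FPKM, Erbb4 2.82 FPKM, Btc 1.98 FPKM, Tgfa 1.10 FPKM, Nrg4 0.296 FPKM and Areg 0.177 FPKM. The ranges of neighbours in this order overlapped for Erbb4 and Btc and for Nrg4 and Areg, and for no other neighbours. The level of Hbegf depends on the gene model, because its length in the table is 2373 bases and its exons cover 4834 bases in GENCODE M21. At that length it would average 5.25 FPKM (4.22 to 6.39 FPKM) and its range would reach that of Egfr (3.59 to 4.24 FPKM).

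**Figure D1:**
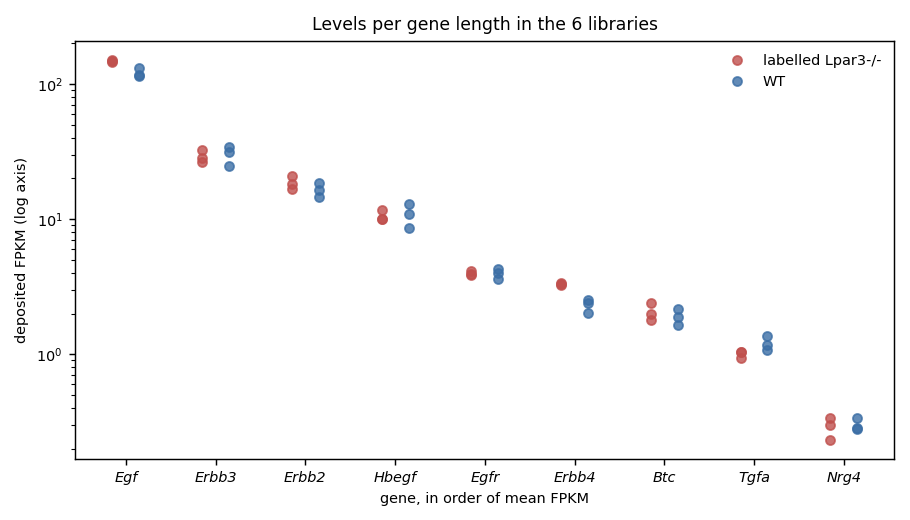
Deposited FPKM on a log axis for the 9 members past the filter, in order of their mean, with 1 point per library (red, labelled Lpar3-/-; blue, WT). Egf lies above 100 FPKM in all 6 libraries, Erbb3 and Erbb2 come next, and Nrg4 lies below 0.4 FPKM.

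Among the receptors, Erbb4 rose in the libraries labelled Lpar3-/-. Erbb4 (ENSMUSG00000062209, GRCm38 chromosome 1, 68032186 to 69108059, minus strand) encodes a neuregulin receptor with an active kinase. It had 718, 641 and 728 counts in replicates 1 to 3 labelled Lpar3-/-, and 561, 427 and 497 in WT. Its level was 40.9, 40.4 and 42.1 CPM in the libraries labelled Lpar3-/- and 31.7, 25.3 and 30.1 CPM in WT, so the groups did not overlap, and the libraries labelled Lpar3-/- lay close together (41.1 ± 0.874 CPM, against 29.0 ± 3.33 CPM in WT, SD, n = 3 each). Over all genes too, the libraries labelled Lpar3-/- were closer to each other than the WT libraries were. Erbb4 rose 1.42-fold, or 0.50 ± 0.092 on the log2 scale (± SE), where the 95% interval ran from 0.30 to 0.70. It passed the edgeR quasi-likelihood test at an adjusted p of 0.0423 (Benjamini-Hochberg, 15225 genes). By p, Erbb4 ranked 54 among all genes, near the end of the 57 called genes. Its exons overlap those of no other annotated gene in GENCODE M21, and its 5 annotated transcripts are counted together.

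The call of Erbb4 was lost in 5 of the 6 fits with 1 library left out, while its direction held in all 6. With 1 library left out, the log2 fold change ran from 0.41 (without WT replicate 2) to 0.57 (without WT replicate 1). The edgeR adjusted p rose above the threshold of 0.05 without any single library but WT replicate 1, to 0.171, 0.167 and 0.252 without labelled Lpar3-/- replicates 1, 2 and 3, and to 0.0565 and 0.0815 without WT replicates 2 and 3. DESeq2 called it (adjusted p = 0.0020), and limma-voom did too (adjusted p = 0.0472), but limma on log2(FPKM + 1) and on log2(FPKM + 0.1) did not (adjusted p = 0.295 and 0.275).

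The other receptors did not pass the test. Egfr, the EGF receptor gene (chromosome 11, 16752203 to 16918158, plus strand), had 43.7, 44.5 and 46.8 CPM in the libraries labelled Lpar3-/- and 45.8, 40.9 and 48.6 CPM in WT. The groups overlapped, and the log2 fold change of -0.0046 had a 95% interval of -0.18 to 0.17. Erbb2 (chromosome 11, 98412470 to 98437716, plus strand) had 95.7, 87.9 and 110 CPM in the libraries labelled Lpar3-/- and 96.5, 75.7 and 86.7 CPM in WT, an overlap again, with a log2 fold change of 0.18 and an interval of -0.040 to 0.40. Erbb3 (chromosome 10, 128567523 to 128589652, minus strand) varied widely within the groups. It had 161, 171 and 197 CPM in the libraries labelled Lpar3-/- and 191, 150 and 207 CPM in WT, with a log2 fold change of -0.050 and an interval of -0.30 to 0.20. The edgeR adjusted p-values of Egfr, Erbb2 and Erbb3 were 0.996, 0.657 and 0.946. The intervals leave room for a rise of Erbb2 by 1.32-fold and of Egfr by 1.13-fold.

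Erbb4 thus made up a larger part of the receptor transcripts per length. It held 6.33%, 6.22% and 5.55% of the summed FPKM of the 4 receptors in the libraries labelled Lpar3-/-, against 4.51%, 4.54% and 4.21% in WT, with no overlap. Erbb3 held the largest part in every library, at 51.2% to 54.2% in the libraries labelled Lpar3-/- and 55.2% to 59.6% in WT. These shares are descriptions and were not tested.

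**Figure D2:**
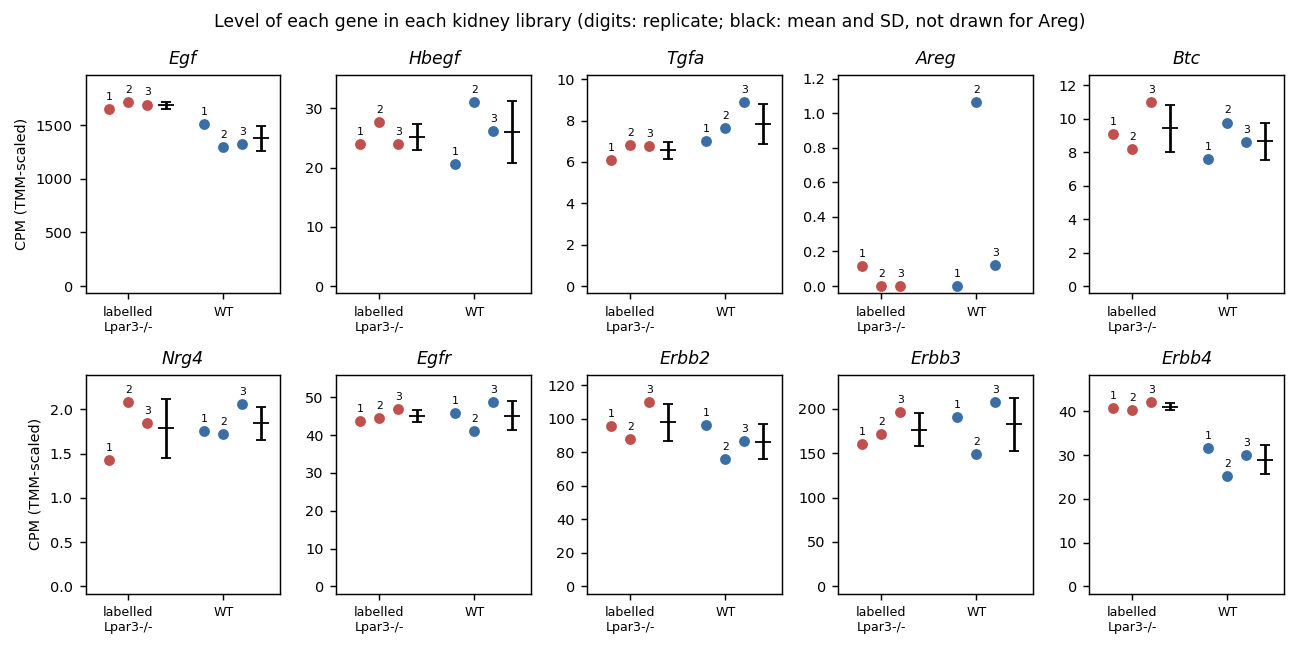
CPM of each of the 10 members in each library, with the libraries labelled Lpar3-/- (red) left of WT (blue), digits for the replicate, and the mean with its SD in black (not drawn for Areg). Egf and Erbb4 lie higher in every library labelled Lpar3-/-, Tgfa lies lower, and the groups overlap for the other 7 genes.

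Among the ligands, Egf was higher in each library labelled Lpar3-/-, but it did not pass the test. Egf (ENSMUSG00000028017, chromosome 3, 129677565 to 129755316, minus strand) had 1652, 1714 and 1692 CPM in the libraries labelled Lpar3-/- and 1506, 1293 and 1328 CPM in WT, and no library of the first group came within the range of the second. The difference was 1.23-fold, with a log2 fold change of 0.29 (SE 0.078, interval 0.12 to 0.46) and an edgeR adjusted p of 0.195. DESeq2 called it (adjusted p = 0.0109), edgeR without a filter did (adjusted p = 0.0146), and so did edgeR without WT replicate 1 (adjusted p = 0.0448). These fits called 179, 520 and 149 genes in all, against 57 by edgeR with the default filter on all 6 libraries. Egf lies 16.5 Mb from Lpar3 on the same chromosome, and whether the DNA flanking the altered allele has a part in its level was not tested. Exons of 6330410L21Rik and Gm42697 on the other strand overlap Egf exons by up to 607 bases, and these genes had at most 62 counts in a library, against at least 21859 for Egf. How reads in the overlap were counted depends on a strand setting that the sources used here do not give.

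Markers of the thick ascending limb, where Egf is made, were higher beside it in sum. The 7 markers (Umod, Slc12a1, Kcnj1, Cldn10, Cldn16, Cldn19 and Ptger3) summed to 4515, 4491 and 4755 CPM in the libraries labelled Lpar3-/-, against 4143, 3682 and 3941 CPM in WT, with no overlap. Of the 7, 6 had a positive fold change and 0 were called by edgeR, with 4 at an unadjusted p under 0.05 (9.18% of all tested genes). DESeq2, limma-voom and edgeR without WT replicate 3 called 1 each, where they called 179, 55 and 50 genes in all. The list was chosen with earlier results of these data known, so these counts are no test of it. In bulk tissue, a change in the number of cells of a type and a change in RNA per cell cannot be told apart. Per 1000 CPM of these markers, Egf had 366, 382 and 356 CPM in the libraries labelled Lpar3-/- and 363, 351 and 337 CPM in WT, so its groups then overlapped. Set against Umod alone, the main secreted protein of that segment, Egf stayed apart (640, 684 and 632 CPM per 1000 CPM of Umod in the libraries labelled Lpar3-/-, against 602, 585 and 574 in WT). Set against Slc12a1 alone, the sodium, potassium and chloride cotransporter gene, it did not (1210, 1201 and 1133 CPM per 1000 CPM in the libraries labelled Lpar3-/-, against 1370, 1284 and 1151 in WT). Set against Slc12a3, the sodium and chloride cotransporter gene of the distal convoluted tubule, it stayed apart (5460, 5413 and 5071 CPM per 1000 CPM in the libraries labelled Lpar3-/-, against 4150, 4806 and 4291 in WT). The 4 distal convoluted tubule markers (Slc12a3, Pvalb, Trpm6 and Calb1) overlapped between the groups, with sums of 649 to 703 CPM in the libraries labelled Lpar3-/- and 543 to 793 CPM in WT. Among them was Trpm6, the magnesium channel gene whose product EGF is known to stimulate, at 11.3 ± 1.04 CPM in the libraries labelled Lpar3-/- and 10.2 ± 2.31 CPM in WT (SD, n = 3 each).

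Ratios were also taken for Erbb4, of which those to the thick ascending limb sum and to Slc12a1 match ratios taken for Egf. Per 1000 CPM of the thick ascending limb markers it had 9.06, 8.99 and 8.85 CPM in the libraries labelled Lpar3-/- and 7.64, 6.86 and 7.63 CPM in WT, so its groups stayed apart. They also stayed apart per 1000 CPM of the distal convoluted tubule markers (63.0, 57.4 and 61.6 CPM in the libraries labelled Lpar3-/-, against 39.9, 46.5 and 53.0 CPM in WT) and of 6 principal cell markers (58.2, 55.1 and 51.7 CPM in the libraries labelled Lpar3-/-, against 48.8, 35.2 and 43.4 CPM in WT). Per 1000 CPM of Slc12a1 alone they overlapped, at 29.9, 28.3 and 28.2 CPM in the libraries labelled Lpar3-/- and 28.8, 25.1 and 26.0 CPM in WT. These ratios were chosen after the values were seen and carry no test.

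The other ligands showed no difference that passed the test. Tgfa, the gene of the EGFR ligand TGF-alpha (chromosome 6, 86195223 to 86275719, plus strand), was the member that lay lower in every library labelled Lpar3-/-, at 6.09, 6.80 and 6.76 CPM, against 6.999, 7.63 and 8.89 CPM in WT. The highest library of the first group and the lowest of the second were close, and the log2 fold change of -0.26 (SE 0.16, 95% interval -0.60 to 0.085) had an edgeR adjusted p of 0.693. It rested on 107 to 147 counts a library. Btc, the betacellulin gene (chromosome 5, 91357261 to 91402994, minus strand), had 9.06, 8.19 and 10.98 CPM in the libraries labelled Lpar3-/- and 7.56, 9.76 and 8.59 CPM in WT, with a log2 fold change of 0.13 and an edgeR adjusted p of 0.882. The groups overlapped, and the interval ran from -0.22 to 0.47.

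Hbegf and Areg, the ligand genes best known for rising in injured tissue, were highest in WT replicate 2. Hbegf (chromosome 18, 36504929 to 36515805, minus strand), which encodes a heparin-binding ligand of EGFR and ErbB4, had 23.9, 27.8 and 24.0 CPM in the libraries labelled Lpar3-/- and 20.6, 31.1 and 26.2 CPM in WT. Its WT libraries held both the lowest and the highest value, and the log2 fold change was -0.040 (interval -0.33 to 0.25, edgeR adjusted p = 0.964) but 0.11 without WT replicate 2. Areg, the amphiregulin gene (chromosome 5, 91139599 to 91148432, plus strand), had 2, 0 and 0 counts in the libraries labelled Lpar3-/- and 0, 18 and 2 counts in WT. Apart from those 18 counts, its libraries lay below 3 counts, the limit that a count of 0 allows, so no difference was detectable at this depth. WT replicate 2 was also the library with the highest injury marker sum, and all 7 injury markers averaged lower in the libraries labelled Lpar3-/-. Their part in these values was not tested.

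Nrg4, which encodes a neuregulin that binds ErbB4, was low. It had 25, 33 and 32 counts in the libraries labelled Lpar3-/- and 31, 29 and 34 in WT (chromosome 9, 55220222 to 55326844, minus strand). The log2 fold change of -0.047 had a 95% interval of -0.68 to 0.59, wide enough to hold a 1.502-fold rise. Exons of Fbxo22, a gene on the other strand with 1004 to 1222 counts a library, overlap those of Nrg4 by up to 202 bases, so its counts are uncertain where strand was not used.

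Over the whole set, 1 of the 9 members tested was called, Erbb4, which was higher. The background was 0.374% of all genes tested called in either direction, and 0.125% called higher. The groups did not overlap for 3 of the 9 members, where the share of all tested genes was 13.7%. The libraries labelled Lpar3-/- lay above WT for 2 of these (6.58% of all tested genes) and below for 1 (7.12%). Among the 9, 2 had an unadjusted p under 0.05, where the share was 9.18%. The median log2 fold change of the 9 was -0.0046, and that of all genes tested was -0.0036. With so few members these counts describe the genes named and say nothing of the family as a whole.

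**Figure D3:**
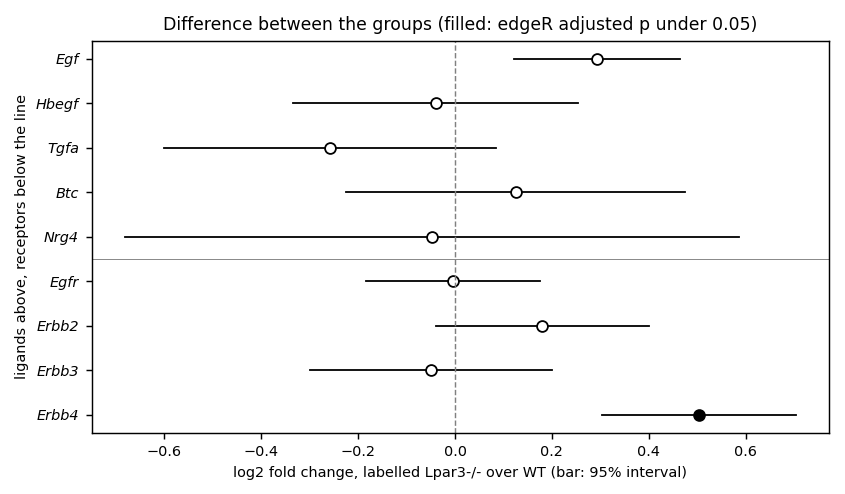
Log2 fold change, labelled Lpar3-/- over WT, with its 95% interval for the 9 members tested, ligands above and receptors below the line. Erbb4 (0.50) is the filled point, with an edgeR adjusted p under 0.05, and the interval of Egf (0.12 to 0.46) also lies above 0, while the other 7 intervals cross 0.

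The calls for Erbb4 and Egf under each fit are set side by side because they changed with the fit. By edgeR on all 6 libraries, Erbb4 lay just past the threshold (adjusted p = 0.0423) and Egf well short of it (adjusted p = 0.195). In each of the 15 other fits both had a positive fold change. Egf was past the threshold in 3 of them and Erbb4 in 8.

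**Figure D4:**
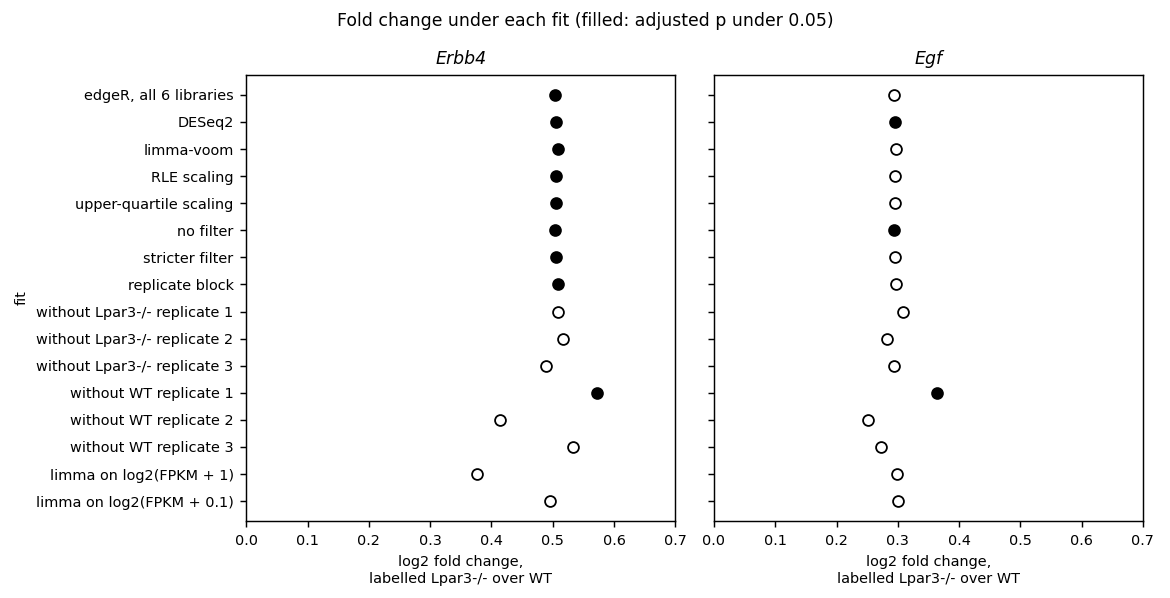
Log2 fold change of Erbb4 (left) and Egf (right), labelled Lpar3-/- over WT, under each fit, filled where the adjusted p was under 0.05. Both stay above 0 throughout, Erbb4 between 0.38 and 0.57 and Egf between 0.25 and 0.36, while their side of the threshold changes with the fit.

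The genes most like Egf over the 6 libraries were Pde1a, Cbr1 and Pdk2. Likeness was the root mean square difference of log2 CPM, each gene centred on its own mean, among 4030 other genes with a mean of at least 50 CPM. It was 0.022 for Pde1a, a calcium-dependent phosphodiesterase gene that had 139, 141 and 146 CPM in the libraries labelled Lpar3-/- and 128, 108 and 114 CPM in WT. It was 0.033 for Cbr1, a carbonyl reductase gene, and 0.040 for Pdk2, a kinase of the pyruvate dehydrogenase complex. Pde1a, Cbr1 and Pdk2 did not pass the test (edgeR adjusted p = 0.190, 0.201 and 0.260). They were picked by a likeness that includes the group difference of Egf, so these p-values are no separate result.

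The remaining ErbB ligands were scarce, apart from Nrg1. Nrg1, which encodes a neuregulin that binds ErbB3 and ErbB4, had 6.09, 14.1 and 8.03 CPM in the libraries labelled Lpar3-/- and 15.01, 12.3 and 6.83 CPM in WT. It varied more than 2-fold within each group, and the log2 fold change was -0.28 (SE 0.31, edgeR adjusted p = 0.859). The other 4 listed ligand genes did not pass the filter on low counts. Nrg2 had 27 counts over the libraries labelled Lpar3-/- and 26 over WT. Ereg had 3 counts over the libraries labelled Lpar3-/- and 11 over WT, Epgn had 1 over the libraries labelled Lpar3-/- and 0 over WT, and Nrg3 had 0 in all libraries.

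Ligand shedding genes did not pass the test. Of the 8 tested of 9 listed, 2 had a positive and 6 a negative log2 fold change, with a median of -0.087. Neither edgeR nor DESeq2 nor limma-voom called any (0 each), while 1 gene had an unadjusted edgeR p under 0.05 (9.18% of all tested genes). That gene was Timp3, whose product inhibits the sheddase ADAM17, at 943, 971 and 895 CPM in the libraries labelled Lpar3-/- and 1045, 1197 and 1090 CPM in WT, with no overlap (log2 fold change -0.25, SE 0.077, edgeR adjusted p = 0.293). Adam17 itself, which sheds TGF-alpha, amphiregulin and HB-EGF, had 26.3 ± 0.423 CPM in the libraries labelled Lpar3-/- and 29.0 ± 2.20 CPM in WT. Adam9, another sheddase, had 98.9 ± 3.60 CPM in the libraries labelled Lpar3-/- and 104 ± 2.74 CPM in WT. Adam12 had 2.38 ± 0.706 CPM in the libraries labelled Lpar3-/- and 3.63 ± 1.52 CPM in WT (SD, n = 3 each).

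Genes that relay the signal inside the cell, from adaptors to Ras, the ERK kinases and PI3-kinase, split evenly. All 27 were tested, 13 with a positive and 14 with a negative log2 fold change, the median was -0.020, and 0 were called by any of edgeR, DESeq2 and limma-voom. The unadjusted edgeR p was under 0.05 for 3, where the share of all tested genes was 9.18%. The groups did not overlap for 4 of the 27, where that share was 13.7%. Stat3, a transcription factor that ErbB and cytokine receptors activate, had 94.7, 88.6 and 87.4 CPM in the libraries labelled Lpar3-/- and 101, 116 and 104 CPM in WT (log2 fold change -0.25, edgeR adjusted p = 0.270). Gab1, a docking protein of EGFR, had 42.6, 43.6 and 40.1 CPM in the libraries labelled Lpar3-/- and 49.95, 47.1 and 49.6 CPM in WT (log2 fold change -0.22, edgeR adjusted p = 0.348). The groups did not overlap for these genes, nor for Plcg1 (phospholipase C gamma 1, 0.15) and Mapk3 (ERK1, 0.14), which had positive log2 fold changes that did not pass the test either.

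Genes that restrain the receptors or their signal also gave 0 calls among 18 tested, by edgeR, by DESeq2 and by limma-voom. Their median log2 fold change was 0.038, and 3 had an unadjusted edgeR p under 0.05 (9.18% of all tested genes). Errfi1, which encodes an inhibitor of the EGFR kinase and was abundant, had 702, 767 and 800 CPM in the libraries labelled Lpar3-/- and 714, 634 and 617 CPM in WT, and the groups overlapped (log2 fold change 0.21, SE 0.082, edgeR adjusted p = 0.444). Socs3, an inhibitor induced by STAT3, had 2.22, 2.02 and 2.66 CPM in the libraries labelled Lpar3-/- and 2.31, 6.09 and 5.02 CPM in WT. Its log2 fold change of -0.95 (edgeR adjusted p = 0.358) rested on WT replicates 2 and 3. Without WT replicate 1, where edgeR called 149 genes in all, Socs3 was called too (adjusted p = 0.0378). Dusp6, a phosphatase of ERK, and Spred1, an inhibitor of Ras signalling, had log2 fold changes of -0.17 and -0.14 without overlap between the groups, and did not pass the test. Over the list the groups did not overlap for 5 of 18 genes, where the share of all tested genes was 13.7%. The libraries labelled Lpar3-/- lay above WT for 2 of these and below for 3.

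Transcripts that respond to ERK signalling had a median log2 fold change of -0.20 over 12 genes, 8 of them negative. Calls numbered 0 in edgeR, DESeq2 and limma-voom alike, and 2 genes had an unadjusted edgeR p under 0.05 (9.18% of all tested genes). Dusp5, a nuclear phosphatase of ERK, had 2.79, 3.53 and 3.01 CPM in the libraries labelled Lpar3-/- and 4.91, 6.80 and 5.44 CPM in WT. Its groups did not overlap, and the log2 fold change of -0.88 (SE 0.21) had an edgeR adjusted p of 0.122. Without a filter on low counts, where edgeR called 520 genes in all, the adjusted p was 0.0082. Ccnd1, the cyclin D1 gene, was the other gene at an unadjusted p under 0.05, at 532, 481 and 447 CPM in the libraries labelled Lpar3-/- and 394, 475 and 392 CPM in WT, an overlap, with a log2 fold change of 0.21. Jun (-0.23) and Etv5 (-0.16) came next by p and overlapped as well. WT replicate 2, the library with the highest injury marker sum, was the highest library for Egr1, Fos, Fosl1, Jun, Etv4, Dusp4, Dusp5 and Ier3. For Ier3 labelled Lpar3-/- replicate 1 came close (25.2 against 25.9 CPM). The highest library was WT replicate 3 for Myc and Etv5, and labelled Lpar3-/- replicates 1 and 2 for Ccnd1 and Phlda1. How many of all tested genes were highest in WT replicate 2 was not measured. Jun had 81.1 CPM in WT replicate 2, and without that library its log2 fold change was -0.0011 and that of Dusp5 -0.74. The part of that library in the median of the list was not tested.

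**Figure D5:**
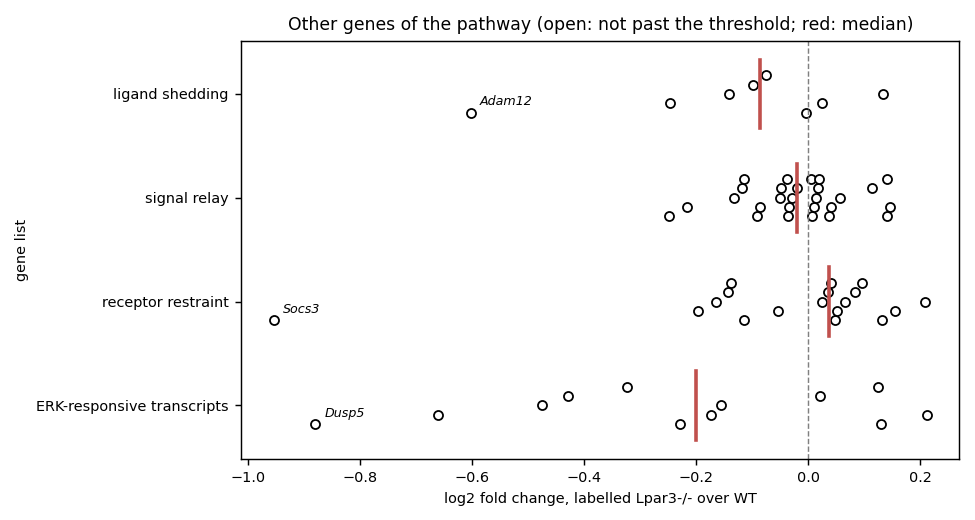
Log2 fold change, labelled Lpar3-/- over WT, of each tested gene in 4 lists of the pathway (open points; none past the threshold), with the median of each list as a red bar. Most points lie within 0.25 of 0, and Socs3 (-0.95), Dusp5 (-0.88), Fos (-0.66, not labelled) and Adam12 (-0.60) lie lowest.

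Other cell types that could carry these transcripts were measured from 14 marker lists, and no listed marker was at 0 in all 6 libraries. Schwann cells, a known site of Erbb3, had 4 markers that summed to 3.40 to 3.53 CPM in the libraries labelled Lpar3-/- and 2.88 to 3.55 CPM in WT. Of these markers, 3 lay under 1 CPM on average. Erbb3 itself had 150 CPM in its lowest library, and the part of Schwann cells in its level was not tested. Smooth muscle markers (38.8 to 47.5 CPM in the libraries labelled Lpar3-/-, against 50.1 to 52.6 CPM in WT) and macrophage markers (76.8 to 82.4 CPM in the libraries labelled Lpar3-/-, against 87.8 to 111 CPM in WT) were lower in sum in every library labelled Lpar3-/-, and their part in the values of Tgfa, Socs3 and Dusp5 was not tested. Adipocyte markers had lower means in the libraries labelled Lpar3-/- gene by gene, although their sums, carried mainly by Fabp4, overlapped (114 to 167 CPM in the libraries labelled Lpar3-/-, against 148 to 265 CPM in WT). All 5 had a negative log2 fold change, with a median of -1.49, against -0.46 for the 4 smooth muscle and -0.56 for the 6 macrophage markers. For 3 of the 5 (Adipoq, Plin1 and Cidec) the libraries labelled Lpar3-/- all lay below WT, where the share of all tested genes was 7.12%. Cidec, a lipid droplet gene, had 4.73, 11.7 and 4.51 CPM in the libraries labelled Lpar3-/- and 32.0, 24.1 and 15.1 CPM in WT (edgeR adjusted p = 0.0525). Of the 5 adipocyte markers, edgeR and limma-voom called 0 and DESeq2 1 (179 genes in all), and 4 had an unadjusted edgeR p under 0.05 (9.18% of all tested genes). With 1 library left out all 5 stayed negative, with a median of -1.91 to -1.16. Without labelled Lpar3-/- replicate 2 edgeR called 2 of them (26 genes in all), and without WT replicate 3 it called 1 (50 in all). The list was chosen with earlier results of these data known, so these counts are no test of it. The part of adipocyte transcripts in the members' values was not tested. Principal cell, intercalated cell, podocyte, endothelial, fibroblast, urothelial and injury sums overlapped between the groups, the last with the lower values of single injury markers given above.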

How the data were processed

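Kidney mRNA of 6 libraries, 3 labelled Lpar3-/- and 3 WT, was sequenced after poly-T capture, per the labels' protocols. The authors deposited a table of raw read counts per gene, whole and not normalized. The submitters' processing notes name the genome build GRCm38, featureCounts 1.5.0-p3, HISAT2 2.0.5 and DESeq2 1.20.0, and the sources used here give neither strand setting nor annotation release. FPKM values, deposited too, match the counts scaled by gene length and by 1 factor per library, to a relative deviation of 4.11e-08 in genes with 20 or more counts. In the 54909 rows, 377 had no gene name (0.259% to 0.362% of counts) and were left out.

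Groups and replicate numbers came from the sample titles. All named genes were tested with edgeR 4.0.16 in R 4.3.3 (quasi-likelihood, default filter, TMM scaling, no covariate), with Benjamini-Hochberg adjustment over 15225 genes and calls at an adjusted p below 0.05. Each SE is the fold change over the square root of its F statistic. The common dispersion gave a coefficient of variation of 10.5% between replicates. Alternatives were DESeq2 1.42.0, limma-voom (limma 3.58.1), RLE and upper-quartile scaling, no filter, a stricter filter (a mean CPM of 1, and 10 counts in 3 libraries), leaving out each library, a block for the replicate number, and limma on FPKM in log2 form, with a pseudocount of 1 or 0.1, where the mean FPKM reached 0.1. The tests were first run on simulated counts.

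The members, the 5 pathway lists and the 14 marker lists were chosen with earlier results of these data known. All members were named, with up to 4 genes of lowest p per pathway list, Lpar3 and Epo, the Egf segment markers, and the 3 genes most like Egf. The ERK-responsive genes were named too, by their highest library. Exon overlaps came from GENCODE M21 (GRCm38).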

Additional observations from a re-analysis of the deposited data

How the results depend on the processing

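Of the fold changes of the 9 members under 15 other fits each, 114 of 135 kept their sign and their side of the threshold. The count of called genes, 57 (19 higher, 38 lower), was 179 by DESeq2 (81 higher, 98 lower), 520 without a filter (190 and 330), 9 by limma on log2(FPKM + 1) (4 and 5) and 13 on log2(FPKM + 0.1) (7 and 6). It ran from 12 to 149 with 1 library left out (7 to 63 higher, 5 to 86 lower), highest without WT replicate 1 and lowest without labelled Lpar3-/- replicate 1 or 3. Called members numbered 2 by DESeq2 and without a filter, 0 in both FPKM fits, and 0 to 2 with 1 library left out. Egf was past the threshold by DESeq2 (log2 fold change 0.29) and without a filter (0.29), and ran from 0.25 to 0.36 with 1 library left out. Erbb4 was not past it on log2(FPKM + 1) (0.38) and log2(FPKM + 0.1) (0.50), and ran from 0.41 to 0.57 with 1 library left out. Without a filter 1 receptor restraint gene (Socs3) and 1 ERK-responsive gene (Dusp5) were called, and with 1 library left out 0 to 1 receptor restraint gene. The cause of these shifts was not tested. Genes near 0 changed sign. Egfr had 0.0015 and 0.0023 in the FPKM fits and -0.069 to 0.056 with 1 library left out, as did Erbb3 (-0.17 to 0.055), Hbegf (-0.18 to 0.11), Nrg4 (-0.17 to 0.093) and Lpar3 (-0.035 to 0.062). With the replicate number as a block, 80 genes were called (29 higher, 51 lower) and Erbb4 remained the called member (log2 fold change 0.51, edgeR adjusted p = 0.0404). Deviations of same-numbered libraries correlated at 0.011, 0.020 and 0.062, and 4 of 6 libraries correlated best with their own number, so the labels and data do not show that numbers pair the samples. Depth limits Areg and Nrg4, with at most 34 counts a library.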
